A study of Caenorhabditis elegans with 3 samples.

Results

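Of 17118 genes with a value, 10 genes that make, move or control small protective solutes in the nematode Caenorhabditis elegans were taken by symbol. They are the glycerol-3-phosphate dehydrogenase genes gpdh-1 and gpdh-2, the trehalose-6-phosphate synthase genes tps-1 and tps-2, the inositol transporter genes hmit-1.1, hmit-1.2 and hmit-1.3, and osm-8, osm-11 and osr-1, whose loss makes worms resist salt. All 10 were found, on 13 probe sets that carry 1 gene symbol each, and genes with several probe sets were given their mean. No probe set with several symbols named any of the 10.

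The samples were whole wild-type hermaphrodites, young adults 3 days old. The GO group was exposed to GO, the rGO group to rGO and the control group to neither. The labels give only these abbreviations; the study is known to have concerned graphene oxide and its reduced form, and no dose was stated in the labels. Each group was kept for 24 h at 20 °C with no bacteria to eat, per the protocol the labels share, in K-medium made of 0.051 M NaCl and 0.032 M KCl. Total RNA of each group went to 1 Affymetrix array, so there is no spread between replicates, no test and no p-value, and every difference compares single arrays. All 3 groups were in the salt medium and unfed, so neither the salt nor the fasting has a reference here. Whether salt at this strength calls up the response described next was not tested.

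A worm in concentrated salt loses water and answers by storing glycerol, made from the glycolytic intermediate dihydroxyacetone phosphate by glycerol-3-phosphate dehydrogenase. Transcription of gpdh-1, mainly in intestine and epidermis, is the usual readout of this response in C. elegans, and hmit-1.1 is also known to be induced by hypertonic medium. Trehalose, a sugar made of a pair of glucose units, protects the worm against salt and drying. Other genes hold the response down: worms that lack osm-8, osm-11, osr-1 or certain furrow collagens make glycerol without salt.

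Values are deposited log2 values per probe set, so 1 unit is 2-fold. A gene entered a comparison if either of its 2 arrays reached 6.79, the median over all genes and arrays, called the floor here. It was counted as higher or lower from a log2 difference of 1 upwards, which sets a size and tests nothing. The brightest of 8 probe sets for transcripts that the samples should lack read 6.24, and values under it were not above background. Levels were compared between arrays for a gene and not between genes, since probes differ in brightness. RNA came from whole worms, so fewer cells of a type and less RNA per cell cannot be told apart.

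The arrays had like medians (6.92 for GO, 6.86 for rGO and 6.87 for control), but the added control transcripts were not equal. All 24 poly-A spike probe sets were lower than on the control array, by a median difference of -1.55 for GO and -0.98 for rGO, and so were all 18 hybridisation control probe sets, by -0.62 for GO and -0.93 for rGO. For 8 worm control transcripts, the 3′ probe set exceeded the 5′ probe set by a median of 2.57 on the GO array, 1.16 on the rGO array and 1.88 on the control array.

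Between the arrays, 5 of the 10 genes spanned at least 1 log2 unit, and tps-2 did so only just (1.002). The span was not computed for all genes, so this count has no share to be read beside. A span over all arrays is at least as large as any difference between arrays, so the count is a description. The inducible genes gpdh-1 and hmit-1.1 were higher on the control array than on both exposed arrays. On the exposed arrays gpdh-1 lay just above the floor and hmit-1.1 below background. The gene hmit-1.3 was higher on both exposed arrays, and osm-8 was higher on the GO array than on the rGO and control arrays.

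**Figure D1:**
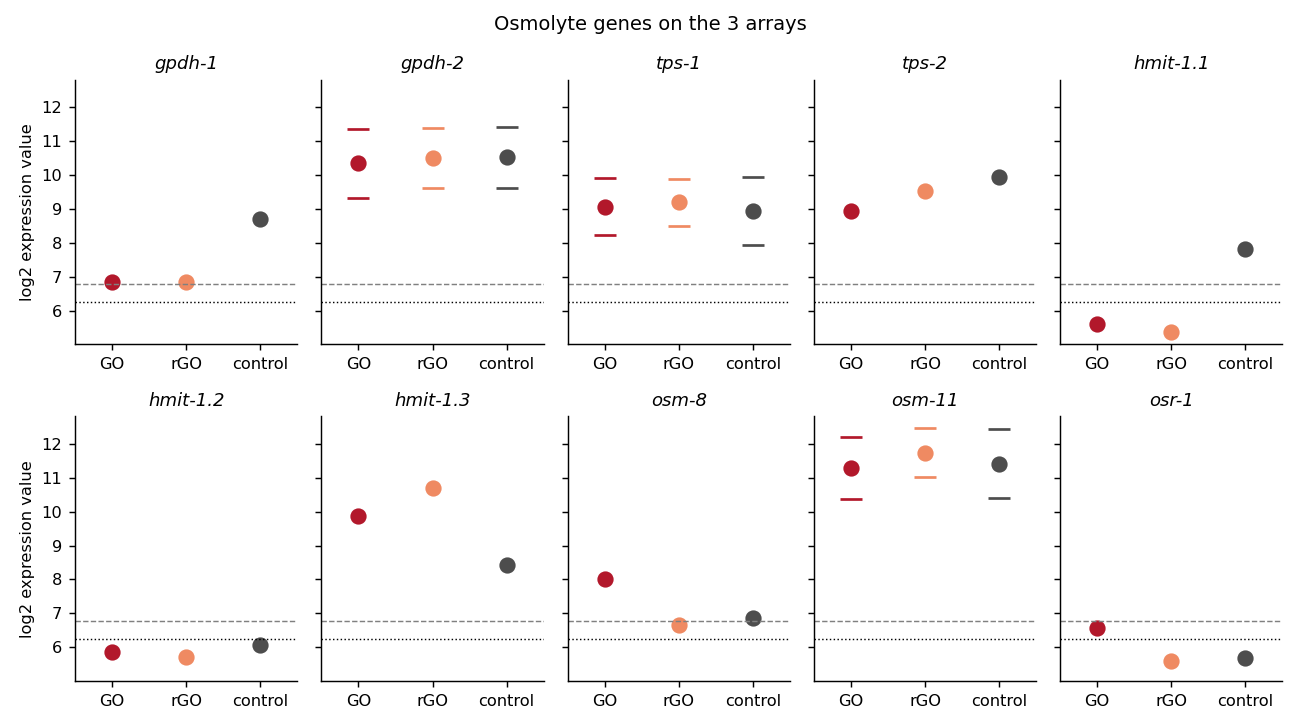
Log2 expression value (vertical axis) of each of the 10 genes on the GO, rGO and control arrays (horizontal axis); circles are gene values, short bars the separate probe sets of genes read by 2, the dashed line the floor of 6.79 and the dotted line the background level of 6.24. The control point stands far above both exposed points for gpdh-1 and hmit-1.1, far below them for hmit-1.3, and the GO point stands alone for osm-8.

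In glycerol synthesis, gpdh-1 was lower on both exposed arrays and gpdh-2 was under 2-fold. The salt-inducible gpdh-1 (F47G4.3) had a log2 value of 6.83 with GO and 6.85 with rGO, against 8.70 on the control array. Both exposed arrays thus lay just above the floor, 0.02 apart. The difference was -1.88 for GO minus control (3.67-fold lower) and -1.85 for rGO minus control (3.61-fold lower). Among all genes above the floor, 424 of 9303 (4.56%) had a difference as low for GO and 363 of 9097 (3.99%) for rGO. The poly-A and hybridisation controls were lower on the same 2 arrays. The 3′ excess of the worm control transcripts was larger than on the control array for 6 of 8 on the GO array and for 0 of 8 on the rGO array. The part of these in the gpdh-1 result was not tested.

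Its paralogue gpdh-2 (K11H3.1), which encodes the same enzyme activity and is expressed without salt, had 10.34 with GO and 10.50 with rGO, against 10.52 on the control array. The differences were -0.17 for GO and -0.01 for rGO. Both of its probe sets share probes between transcripts by the maker's naming. Each of its 2 probe sets stayed within 0.3 of the control array: the brighter had 11.36 on GO, 11.39 on rGO and 11.41 on control, and the dimmer 9.33, 9.62 and 9.62 in the same order. A further gene named for this family, gpdh-3, taken here after its values were seen, had 8.31 on GO, 8.82 on rGO and 8.27 on control.

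Of the trehalose-6-phosphate synthase genes, which join glucose units in the first step of trehalose synthesis, tps-2 was lower on the GO array and tps-1 was under 2-fold everywhere. For tps-2 (F19H8.1) the values were 8.93 with GO and 9.54 with rGO, against 9.93 on the control array. The GO minus control difference of -1.002 lay on the limit of the size rule, and 905 of 9303 genes (9.73%) were as low. The rGO minus control difference was -0.40, so the rGO array lay between the other two.

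For tps-1 (ZK54.2) the gene values were 9.07 on GO and 9.19 on rGO, against 8.94 on control, with differences of 0.13 and 0.25. Its 2 probe sets did not move alike. The brighter had 9.91 on GO, 9.89 on rGO and 9.95 on control, nearly flat, while the dimmer had 8.22, 8.50 and 7.93 in the same order, 0.57 above control on the rGO array.

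The 3 inositol transporter genes gave 3 different pictures. They encode homologues of the mammalian proton-coupled myo-inositol transporter, and myo-inositol is an osmolyte in many animals. The value of hmit-1.1 (Y51A2D.4) was 5.59 with GO and 5.36 with rGO, both below background, against 7.81 on the control array. The measured differences were -2.22 for GO and -2.45 for rGO, and against the background level the gene was at least 2.97-fold lower on either exposed array. Since both exposed values were below background, their own order has no meaning.

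The neighbouring gene hmit-1.2 (Y51A2D.5) had 5.86 on GO and 5.71 on rGO, against 6.08 on control, and was not above background on any array. No difference was drawn from it.

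The third transporter gene, hmit-1.3 (M01F1.5), went the other way, with 9.86 with GO and 10.69 with rGO, against 8.44 on the control array. Both exposed arrays were higher, by 1.43 for GO (2.69-fold) and by 2.25 for rGO (4.76-fold). For rGO, 87 of 9097 genes (0.956%) were as high, and for GO 404 of 9303 (4.34%). The GO minus rGO difference of -0.83 was under 2-fold. Its only probe set is one that the maker names as sharing probes between transcripts.

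Among the 3 genes that hold the response down, osm-8 (R07G3.6), which encodes a mucin-like protein secreted by the epidermis, had 8.01 on the GO array, against 6.65 on the rGO array and 6.87 on the control array. It was higher with GO than in the control by 1.14 (2.21-fold) and higher than on the rGO array by 1.36 (2.56-fold). As high were 623 of 9303 genes (6.70%) against control and 287 of 8978 (3.20%) against rGO. On the rGO array it differed from control by -0.21.

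The Notch co-ligand gene osm-11 (F11C7.5) had 11.29 on GO and 11.74 on rGO, against 11.42 on control, and all its differences were under 2-fold. Of its 2 probe sets, the dimmer was 0.62 higher on the rGO array than on the control array (11.03 on rGO against 10.40 on control) and the brighter 0.03 higher (12.46 on rGO against 12.43 on control), so they disagreed on the size of the rGO difference.

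The salt-resistance gene osr-1 (C32E12.3) had 6.56 on the GO array, against 5.59 on the rGO array and 5.69 on the control array. The last 2 values were below background and none reached the floor, so it entered no count. Its order of arrays was that of osm-8, with GO highest, but the bound on its GO fold was only 1.24 over either array.

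**Figure D2:**
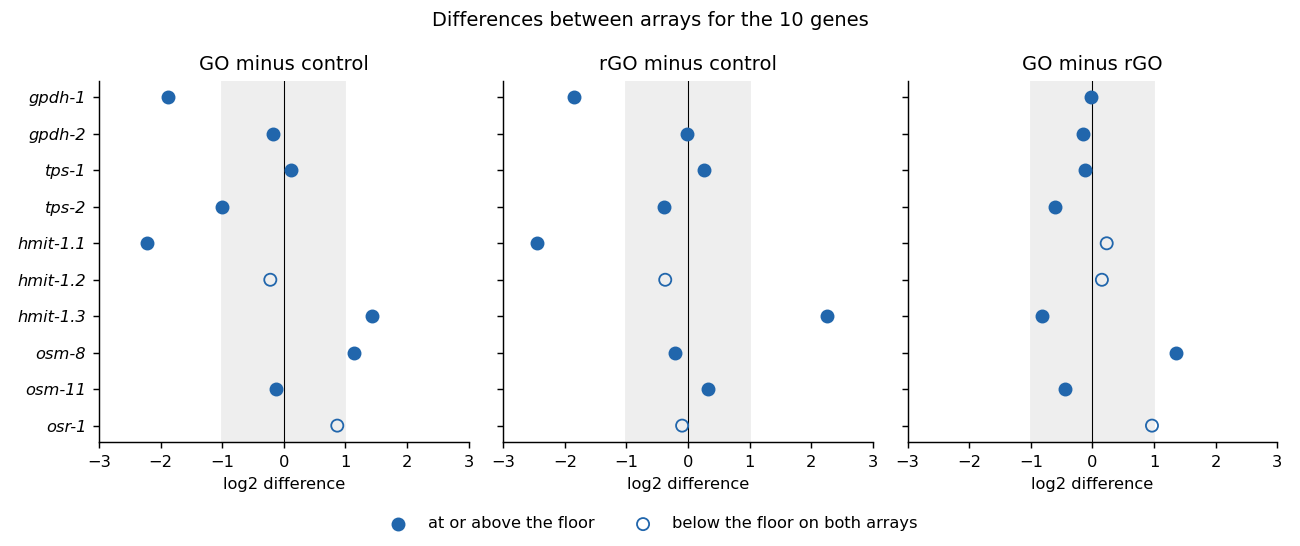
Log2 difference (horizontal axis) of the 10 genes (vertical axis) for GO minus control, rGO minus control and GO minus rGO; filled circles are genes at or above the floor, open circles genes below it on both arrays, and the grey band marks differences under 1. Points outside the band number 5 for GO, 3 for rGO and 1 for GO minus rGO.

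Read as a group against the control array, the GO array had 2 of the 10 genes higher (hmit-1.3 and osm-8), 3 lower (hmit-1.1, gpdh-1 and tps-2) and 3 under 2-fold, and 2 were below the floor. Over all 9303 genes above the floor, 18.2% passed the same size rule, 8.43% higher and 9.76% lower. The median difference of the 8 genes above the floor was -0.15, against 0.03 for all genes. A gene that enters only through its brighter array is bound to differ, and hmit-1.1 entered through the control array alone, so the count is a description.

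For rGO minus control, 1 of the 10 was higher (hmit-1.3), 2 were lower (hmit-1.1 and gpdh-1), 5 were under 2-fold and 2 were below the floor. Here too hmit-1.1 entered through the control array alone, so this count is also a description. Over all 9097 genes, 17.9% passed the rule, 7.99% higher and 9.88% lower. The median of the 8 genes was -0.11, against 0.03 for all genes. The GO and rGO differences share the control array, so that array's own deviation enters both, and the likeness of the 2 sets of values is not a repeat.

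For GO minus rGO, only osm-8 passed the rule among the 10 genes, on the higher side. It entered this comparison through the GO array alone, since its rGO value of 6.65 was below the floor. The other 6 genes above the floor were under 2-fold, and hmit-1.1, hmit-1.2 and osr-1 were below it on both arrays. Over all 8978 genes, 9.32% passed, 5.59% higher and 3.73% lower. The next in size were hmit-1.3 (-0.83) and tps-2 (-0.61).

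**Figure D3:**
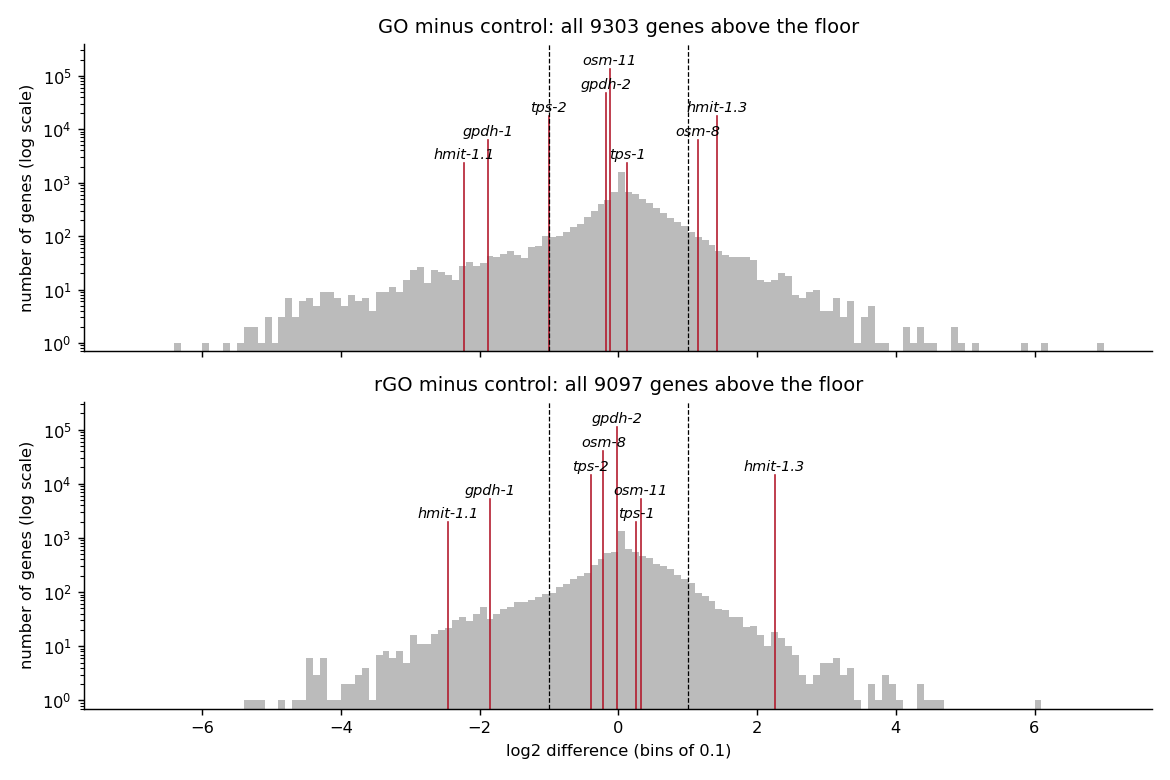
Number of genes (vertical axis, log scale) by log2 difference (horizontal axis, bins of 0.1) for GO minus control over 9303 genes and rGO minus control over 9097 genes; red lines mark the osmolyte genes above the floor and dashed lines the size rule. hmit-1.1 and gpdh-1 lie in the lower flank of both distributions and hmit-1.3 in the upper flank, inside the range that other genes reach.

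Genes around the 10 were described from lists of named pathway genes. The list counts below are to be read beside the shares over all genes above the floor. These were 8.43% higher and 9.76% lower for GO minus control, and 7.99% higher and 9.88% lower for rGO minus control. For GO minus rGO they were 5.59% higher and 3.73% lower. The lists are short, so their counts are descriptions. For trehalose, all 6 genes for its breakdown and the phosphatase step were above the floor against control. On the GO array 1 was higher and 5 were under 2-fold, and on the rGO array 2 were higher and 4 under 2-fold. The trehalase gene tre-5, whose product splits trehalose into glucose, had 8.89 on GO and 9.77 on rGO, against 7.37 on control, a difference of 1.51 for GO and 2.40 for rGO. The trehalase gene tre-3 had 8.77 on GO and 9.56 on rGO, against 8.39 on control, and passed the rule for rGO (1.17). Its order, rGO above GO above control, was also that of tre-5 and hmit-1.3. Other genes named below had this order too, among them inos-1, glp-1, ogt-1 and aldo-2. It was thus not particular to the trehalase genes and hmit-1.3. The trehalase genes tre-2 (-0.58 for GO) and tre-4 (-0.40 for GO and -0.53 for rGO) and the trehalose-6-phosphate phosphatase gene gob-1 (-0.44 for GO minus rGO) were under 2-fold.

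Of 17 listed genes for glycerol handling and water channels, 11 were measured and 8 were above the floor against control. On each exposed array 1 was higher and 2 were lower than on the control array. Aquaporins pass water and, for some members, glycerol. The aquaporin gene aqp-2 had 12.68 with GO and 11.30 with rGO, against 10.21 on the control array, so it was higher by 2.47 for GO and by 1.09 for rGO. The aquaporin gene aqp-7 had 9.81 on GO and 10.21 on rGO, against 11.61 on control, differences of -1.80 for GO and -1.40 for rGO. For aqp-8, an aquaporin gene of the excretory cell, the GO array had 6.96, against 8.21 on rGO and 8.08 on control, differences of -1.12 against control and -1.25 against rGO. The rGO array was low for aqp-4, with 7.05, against 7.96 on GO and 8.15 on control. The aquaporin genes therefore had no common direction, as was true of the inositol transporters.

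The list for inositol metabolism showed little. Of 5 listed genes 4 were measured and 3 were above the floor, and all 3 were under 2-fold in each comparison. The inositol-3-phosphate synthase gene inos-1 had 10.11 on GO and 10.36 on rGO, against 9.94 on control. The inositol monophosphatase gene ttx-7 differed from control by 0.29 on GO and 0.28 on rGO, and itr-1, the inositol trisphosphate receptor gene, by -0.07 and 0.25.

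Among 22 listed regulators and partners of the osmotic response, 17 were above the floor, and 16 of these were under 2-fold against control on either exposed array. The Notch receptor gene glp-1 was the exception on both, with 10.35 on GO and 10.46 on rGO, against 9.25 on control. Of the others, skn-1, a stress transcription factor gene, was -0.80 for GO. The epidermal peptide gene nlp-29, which is induced by salt as well as by infection, was -0.74 for GO and -0.52 for rGO, and its relative nlp-31 was -0.77 for rGO. The O-GlcNAc transferase gene ogt-1, whose loss blocks the rise of the GPDH-1 protein in salt, was 0.76 for rGO. Between the exposed arrays, ptr-23, a patched-related gene whose loss undoes the osm-8 mutant phenotype, was 0.71 for GO minus rGO, the chloride channel gene clh-3 -0.62 (not above background on GO) and the kinase gene sek-1 -0.42.

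The furrow collagens, whose loss switches on gpdh-1, were higher on the GO array for part of the list. Of 6 listed, 5 were measured. Against control, 2 were higher on the GO array and 3 under 2-fold, whereas all 5 were under 2-fold on the rGO array. Over all genes above the floor, 8.43% were higher for GO minus control and 5.59% for GO minus rGO. The collagen gene dpy-2 had 8.65 on GO, against 7.11 on rGO and 6.85 on control. For dpy-7 the values were 8.58 on GO, against 6.98 on rGO and 7.13 on control. The GO array also had 9.48 for dpy-3, against 8.04 on rGO and 8.70 on control. All 3 were higher on GO than on rGO, by 1.54 for dpy-2, 1.61 for dpy-7 and 1.44 for dpy-3. So was osm-8, which entered that comparison through the GO array alone. For dpy-8 and dpy-9 the GO minus rGO differences were 0.07 and 0.17, and the rGO minus control differences -0.48 and -0.87.

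Glycolysis and gluconeogenesis supply the precursors of glycerol and trehalose. Of 23 listed genes 19 were above the floor. On the GO array 1 was lower (the aldolase gene aldo-1, -1.01) and 18 were under 2-fold, with a median of -0.25. On the rGO array 1 was higher (the aldolase gene aldo-2, 1.06) and 18 were under 2-fold, with a median of 0.02. The fructose bisphosphatase gene fbp-1 was -0.97 for GO and -0.92 for rGO, the pyruvate carboxylase gene pyc-1 was -0.91 for GO, and the phosphoglycerate mutase gene ipgm-1 was 0.74 for rGO. Between the exposed arrays all 19 were under 2-fold, with the pyruvate kinase gene pyk-2 at -0.96 and the glyceraldehyde-3-phosphate dehydrogenase gene gpd-3 at -0.89.

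**Figure D4:**
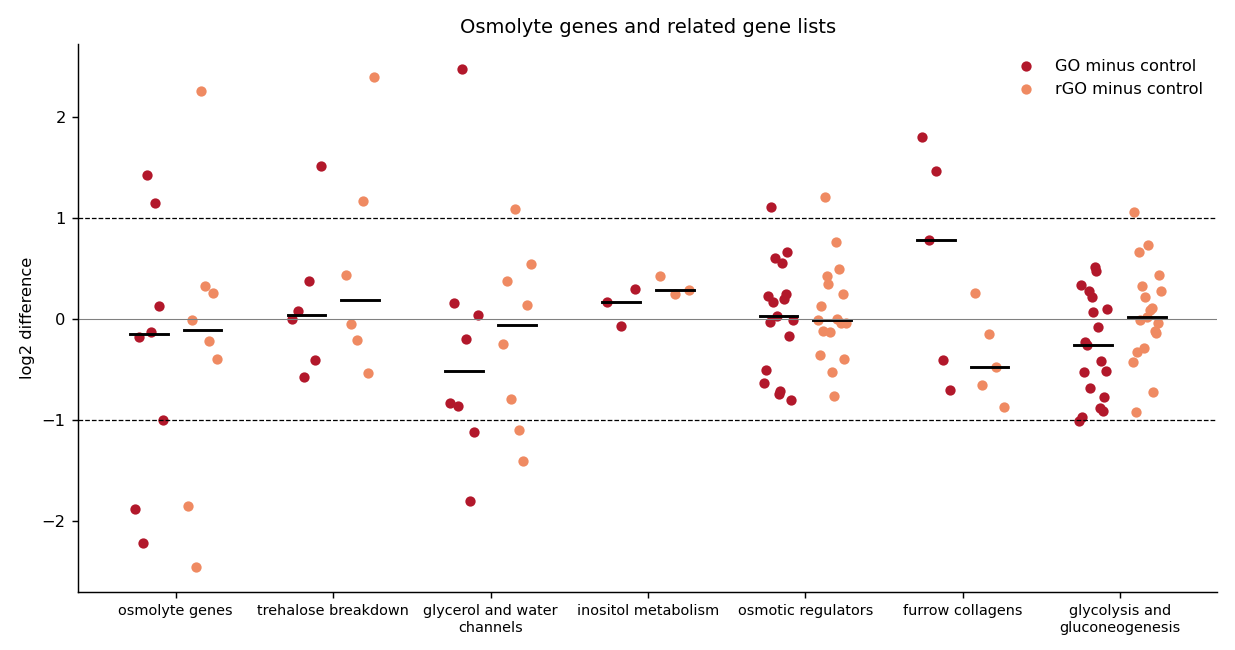
Log2 difference to the control array (vertical axis) of genes above the floor in the osmolyte genes and 6 related lists (horizontal axis), in dark red for GO and orange for rGO; points are genes, black bars list medians and dashed lines the size rule. Each list except inositol metabolism has a gene past a dashed line in at least 1 of the comparisons.

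Markers of the tissues that express these genes were also unequal. Over all genes above the floor, 8.43% were higher and 9.76% lower for GO, and 7.99% higher and 9.88% lower for rGO. Of 10 measured intestine markers, 4 were lower with GO than on the control array (act-5, ges-1, vha-6 and pept-1) and 2 on the rGO array (act-5 and pept-1), with no marker higher. Their summed linear intensity, in which bright probe sets weigh most, was 35674 on GO and 36436 on rGO, against 35033 on control, and none was below background. Without the yolk genes vit-2 and vit-6 the other 8 summed to 9023 on GO and 10229 on rGO, against 13844 on control. Of 12 epidermis markers, 4 were higher and 4 lower on the GO array, and 1 was higher and 3 lower on the rGO array. Those higher on GO were noah-1 (3.37), wrt-2 (1.96), nhr-25 (1.58) and dpy-7 (1.46), and those lower were col-19, bli-1, rol-6 and lin-29. Of these, nhr-25 entered through the GO array alone, and bli-1 and lin-29 through the control array alone. For rGO minus control, bli-1 again entered through the control array alone, so both counts are descriptions. The summed intensity of the 12 was 5477 on GO and 4621 on rGO, against 7745 on control, and bli-1 was below background on both exposed arrays. Without the adult collagen col-19 the other 11 summed to 5226 on GO and 2169 on rGO, against 3129 on control, so the order of GO and control turned. These genes were left out after their values were seen. Of 9 measured excretory cell markers, 7 were above the floor for GO minus control and 6 for rGO minus control. Among those 1 was lower on GO and 1 higher on rGO, so these counts are descriptions. All 9 summed to 3613 on GO, 3394 on rGO and 3725 on control. On each array 2 markers were below background: sulp-4 on all 3, clh-3 on GO, and ceh-6 on rGO and control. The part of these differences in gpdh-1, hmit-1.1, hmit-1.3 and osm-8 was not tested. Of 9 adult hermaphrodite markers, such as the yolk protein genes vit-2 and vit-6, all were above background on every array, and 8 were under 2-fold against control with GO and all 9 with rGO. The exception was col-19, with 7.97 on GO and 11.26 on rGO, against 12.17 on control, a difference of -4.20 for GO minus control and -3.29 for GO minus rGO, and its part in the results on the 10 genes was not tested.

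By distance of the mean-centred values over 3 arrays, the genes nearest to gpdh-1 among 9453 were C55A6.12 (0.019), Y58A7A.5 (0.024) and Y71F9B.1 (0.032). Their values on GO, rGO and control were 7.52, 7.53 and 9.37 for C55A6.12 and 7.29, 7.34 and 9.19 for Y58A7A.5, and Y71F9B.1 had 7.38 on both exposed arrays and 9.28 on control. With 3 arrays such likeness is weak: 281 genes lay within 0.5.

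Genes beside the 10 in the RefSeq gene order were also read. The neighbours of gpdh-1, F47G4.4 and gadr-6, differed from control by 0.74 and 0.21 on GO and by 0.06 and 0.11 on rGO. The neighbours of hmit-1.1, hmit-1.2 and Y51A2D.1, were not above background on any array and allow no comparison. For tps-2 both neighbours were lower on the GO array as well, with a difference of -1.56 for catp-4 (6.35 on GO against 7.91 on control) and -1.18 for pugs-2 (7.11 on GO against 8.29 on control), and catp-4 was lower on rGO (-1.17). Over all 18 neighbours that are none of the 10 genes, 15 were measured, and 3 passed the rule for GO and 1 for rGO. Over all genes above the floor, 18.2% passed for GO and 17.9% for rGO. Of the 15, npr-24, Y51A2D.1 and pde-5 were below the floor and could not pass. The third neighbour to pass for GO was lips-17 beside osm-8, with 6.14 on GO, below background, against 7.30 on control, so at least 2.08-fold lower. Both catp-4 and lips-17 entered through the control array alone, so the count is a description.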

How the data were processed

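The authors deposited 1 log2 expression value per probe set and array. RMA, the Affymetrix Expression Console and GCOS are the tools named, per the submitters' processing notes, without versions. RMA makes array-wide distributions alike, so a general shift of RNA per worm cannot be seen, and its summary gives ties: 20.4% of 20766 single-gene probe sets were equal on GO and control, but none of the 13 probe sets of the osmolyte genes was tied. Per the labels' protocols, 300 ng of total RNA per sample was labelled.

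Of 22625 probe sets, 77 were the maker's controls, 887 carried several genes and 895 none in the platform annotation of 2016, and these were left out. Symbols were updated through gene identifiers in a RefSeq table of assembly WBcel235 for 20701 probe sets. Its chromosome and start positions served only to order genes and find the neighbours. Of the 13 probe sets, 7 share probes by the maker's naming, and 4 of the 10 genes have no other.

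Named genes are the 10, up to 3 per pathway list with the largest absolute difference in a comparison, and the 3 nearest to gpdh-1; other names, among them the genomic neighbours, were added after their values were seen. The 10 genes and the lists were chosen with earlier results of these data known. Folds are "at least" where the dimmer value was under 6.24. The small number of arrays limits the precision. Python 3.11.15, pandas 2.3.3 and NumPy 2.4.6 were used, and the step that counts genes past the size rule was checked on simulated data. Alternatives changed the probe set summary, shared probe sets, normalisation, centring, floor and size rule. No gene sequences were used here.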

Additional observations from a re-analysis of the deposited data

How the results depend on the processing

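Under 7 alternatives, 198 values of single genes were recomputed. In 0 of these did a difference past the size rule change sign, and 0 moved by more than the typical disagreement between a gene's probe sets (median SD 0.20 in the GO to control comparison, 0.33 in the rGO to control comparison and 0.26 between the exposed arrays). Most of the 198 values could not move, so these zeros say little. A change of floor or size rule leaves a value as it was. A change of probe sets does so for a gene with 1 unshared probe set. For gpdh-1, GO minus control ran between -1.95 and -1.88 and rGO minus control between -1.86 and -1.81. Only the changed normalisation and the centring could move the gpdh-1 values.

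The counts depended on the floor. With the floor at the 75th percentile (8.92), 2 genes passed for GO minus control (1 higher, 1 lower), 1 for rGO minus control (0 lower) and 0 for GO minus rGO (0 higher), since gpdh-1, hmit-1.1 and osm-8 lie below that floor. Without probe sets that share probes, hmit-1.3 has no value, and 1 gene was higher for GO and 0 for rGO. At a size rule of 1.5-fold, 3 genes passed for GO minus rGO, 2 of them lower (hmit-1.3 and tps-2). The other counts stayed within 1.5 times.

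No paired analysis was possible because each group has 1 array, and for the same reason no replicate could be left out. The call of tps-2 for GO, at -1.002, was the same under all 7 alternatives, but 1 unshared probe set reads this gene. Its value could therefore move only with the changed normalisation (-1.04) and the centring (-1.05). The size rule of 1.5-fold is looser, so the call could not be lost there. Chosen after seeing the data, leaving out the brightest markers turned 3 differences in summed linear intensity. Without vit-2 and vit-6 the intestine sum differed from control by -4821 for GO and -3616 for rGO, against 641 for GO and 1403 for rGO with all 10 markers. Without col-19 the epidermis sum differed from control by 2097 for GO, against -2267 with all 12, and by -960 for rGO, against -3123 with all 12.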
